A study of Mus musculus with 8 samples.

Results

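The genes described here encode the collagens, the laminins, the nidogens and the integrins, the structural proteins of the extracellular matrix and the receptors by which cells hold on to it. They were read from the RNA-seq table of WT and CTCF-K20R mouse embryonic stem cells (mESCs) and embryoid bodies (EBs). Members were all rows whose symbol has the form of a collagen chain (Col, a number, a and a number), of a laminin chain (Lama, Lamb or Lamc with a number) or of an integrin subunit (Itga or Itgb with a number or 1 letter), together with Nid1 and Nid2. The rule found 77 of the 18094 genes, namely 41 collagens, 11 laminins, 2 nidogens and 23 integrins. Of these, 66 passed the filter on low values, a mean of 10 or more normalized counts over the 8 libraries, and were tested. The 11 members that did not pass were Col4a3, Col4a4, Col6a3, Col8a1, Col12a1, Col15a1, Col24a1, Lama2, Itga2, Itga11 and Itgb2, and none of them exceeded 23.2 normalized counts in any library.

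The cells were of the male mESC line E14Tg2A. On day 0 they were undifferentiated cells grown over feeder cells (mouse embryo fibroblasts stopped with mitomycin C) in medium with serum, LIF and the 2i inhibitors. On day 4 they were EBs, the aggregates in which differentiation begins, formed in hanging drops in medium with serum but no LIF. WT cells carried no edit of Ctcf, and in CTCF-K20R cells lysine 20 of CTCF had been replaced by arginine with CRISPR/Cas9. Each genotype and day had 2 libraries, 8 in all. The number of mutant clones behind the libraries is not given in the sources used here, so the genotype cannot be told apart from a difference between clones or cultures.

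Laminins are trimers of an alpha, a beta and a gamma chain, and with the collagen IV network and the nidogens that link both networks they build basement membranes. Integrins are pairs of an alpha and a beta subunit. The alpha3, alpha6 and alpha7 subunits give receptors for laminin, whereas alpha5, alpha8 and alphaV give receptors for proteins with an RGD motif such as fibronectin, and Itgb1 encodes the beta subunit that most of these alpha subunits share. In EBs a basement membrane forms between the outer endoderm layer and the cells inside, and mesoderm cells that leave the epithelium change the matrix they make and the integrins they carry.

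Values are normalized counts as the authors scaled them, and the libraries summed to between 19412659 and 21311513 of them. The 2 WT libraries of each day differed by less than the sampling noise (mean squared difference 0.314 times that expected of independent reads in mESCs and 0.278 times in EBs), so they were averaged and counted as 1 sample. The CTCF-K20R pairs differed by more (4.00 and 4.36 times) and were kept as 2 samples per day, which makes n = 1 for WT and n = 2 for CTCF-K20R in each comparison. Standard errors and adjusted p-values come from limma on log2(value + 1) over all 15767 genes tested, with Benjamini-Hochberg adjustment. A gene was called a DEG where the log2 fold change was over 1 in either direction at an adjusted p under 0.05. The scale understates the fold of low genes. The limit of detection was set at 3 reads per library, which is 2.43 to 3.43 normalized counts and covers counting error only, and folds are lower bounds where a group did not exceed it.

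On day 4 the CTCF-K20R EBs held less RNA of the collagen IV chains Col4a1 and Col4a2, of the laminin chain Lama1, of several other collagens and of the RGD-binding integrin subunits Itga5 and Itga8. They held more of Col18a1 and of the laminin-binding subunits Itga3 and Itga6. Of the 66 members tested, 10 were upregulated and 14 were downregulated, which is 15.2% and 21.2% of them, against 6.89% and 8.65% of all genes tested. The median log2 fold change was -0.36 over the members, also with the 4 members at the limit set to their bound, and 0.01 over all genes. The median was -0.80 over the 34 collagens, of which 5 rose and 11 fell. Of the 10 laminins 1 rose and 1 fell, of the 2 nidogens neither passed the fold threshold, and of the 20 integrins 4 rose and 2 fell. Some members, among them Col9a1, Col19a1 and Col3a1, passed the filter on low values only through the group where they were high. The direction of their calls was thus fixed by the filter. In bulk RNA, fewer cells of a type and less RNA per cell cannot be told apart.

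**Figure D1:**
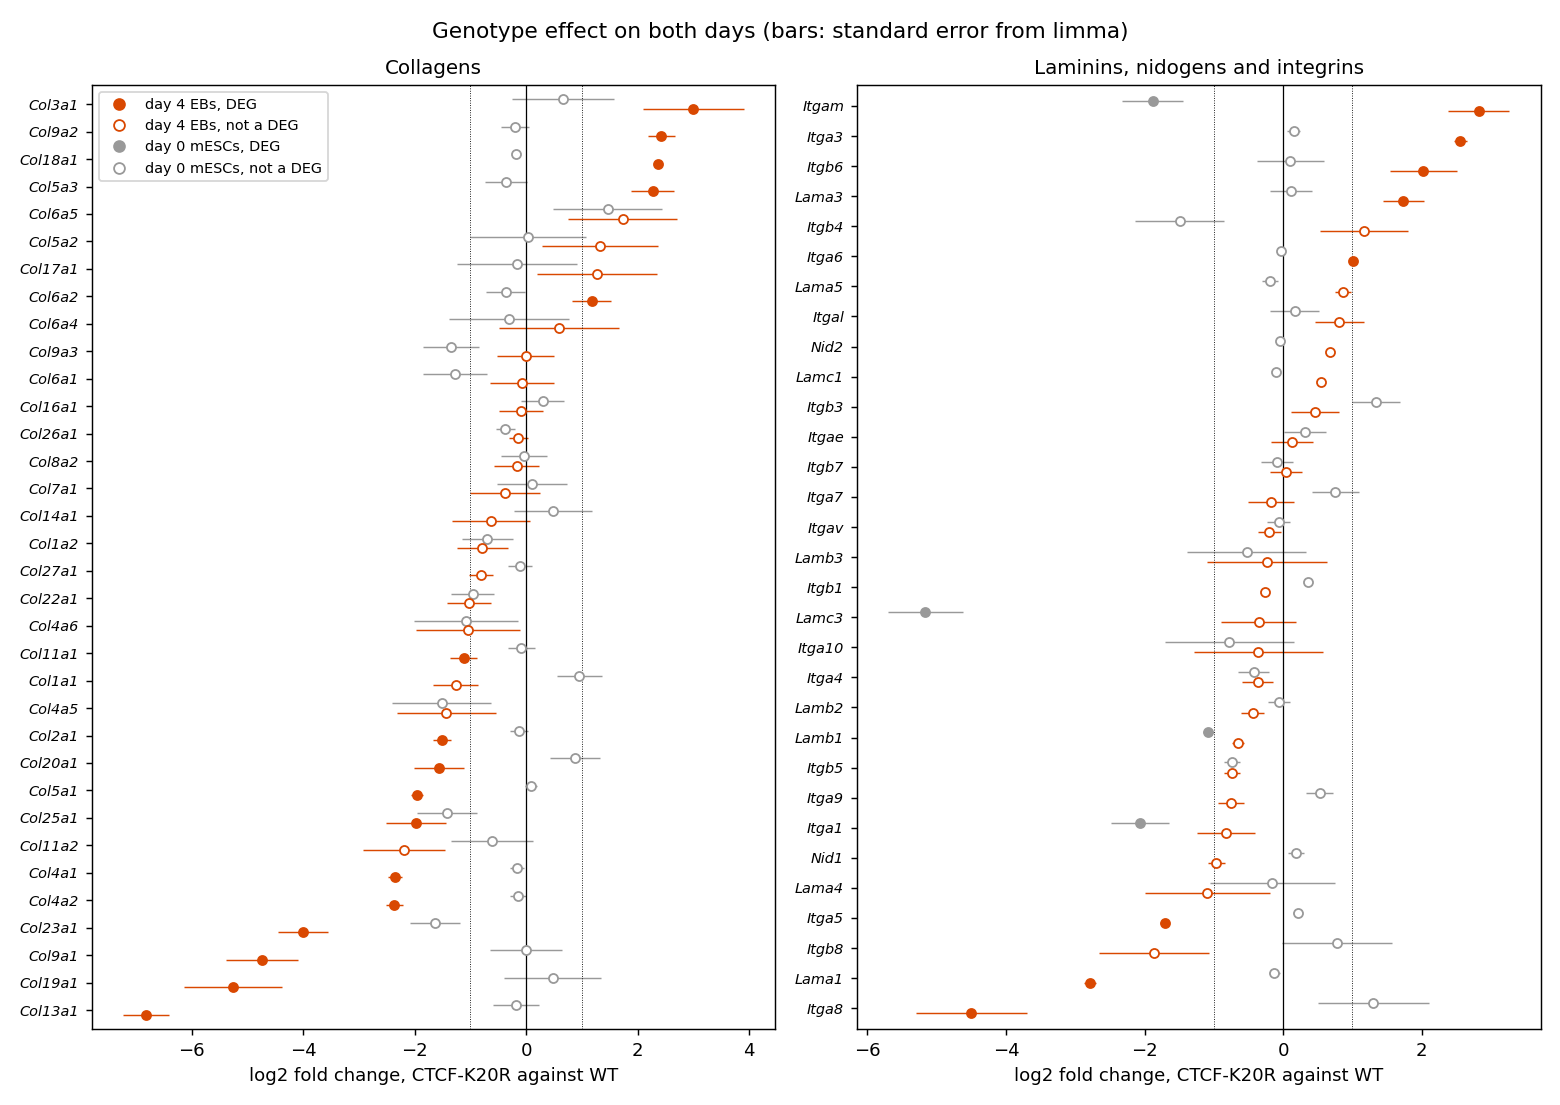
Log2 fold change of CTCF-K20R against WT for the members tested, on day 4 (orange) and day 0 (grey), with the standard error from limma as bars and filled points for DEGs. The dotted lines mark log2 fold changes of -1 and 1. On day 4 the members run from -6.83 (Col13a1) to 3.00 (Col3a1), and on day 0 4 members are filled, all of them on the left of 0.

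Marker lists of other cell types moved with the genotype on day 4. The summed normalized counts of 8 primitive streak and mesoderm markers were 40829 and 41007 in WT EBs but 2502 and 2403 in CTCF-K20R EBs, and all 8 fell. Among 12 extraembryonic endoderm markers the sums were 6771 and 6760.2 in WT and 2095 and 1969 in CTCF-K20R EBs. Of the 7 tested 3 fell (Gata4, Sox17 and Gata6, the last at 1207 and 1205 against 4.69 and 10.7). Amn rose 3.50-fold, the 1 marker called higher. Cubn (3.52-fold) and Dab2 (1.84-fold) were higher too but did not pass the test, and Sparc was lower, short of the fold threshold. Of those not tested, Afp, Ttr and Thbd were higher in CTCF-K20R EBs at a few reads, Sox7 was lower and Apoa1 alike. The markers of this list thus did not all move in the direction of its sum. Gata4, Gata6 and Sox17 were far higher in WT EBs than in WT mESCs, as the streak and mesoderm markers were. Their fall can therefore not be assigned to extraembryonic endoderm alone. The 10 blood and endothelial markers summed to 3024 and 3014 in WT and 571 and 515 in CTCF-K20R EBs, but most of this difference was Kdr (2312 and 2293 against 46.5 and 26.1), and of the 7 tested 2 fell (Kdr and Etv2) and 2 rose (Pecam1 2.37-fold and Tek 3.48-fold). Pecam1 was far higher in mESCs (mean 2672 in WT and 2517 in CTCF-K20R) than in EBs. Tek was higher in WT mESCs (mean 44) than in WT EBs (15.5). Neither was thus particular to blood and endothelium here. Of the markers not tested, Hbb-bh1 (0 and 0 in WT against 25.2 and 21.7) and Hba-x (0 and 0 against 7.98 and 3.23) were higher in CTCF-K20R EBs. Cdh5 was lower (26 and 27.7 against 10.3 and 9.79). The 7 pluripotency markers summed to 15538 and 15651 in WT and 32130 and 31406 in CTCF-K20R EBs, with 4 higher and 1 lower. The 5 neural markers in the table summed to 1978 and 1940.3 in WT and 2673 and 2711 in CTCF-K20R EBs. Of the 4 neural markers tested 2 rose. The 9 feeder fibroblast markers summed to 991 and 982 in WT and 909 and 859 in CTCF-K20R EBs, but of the 5 tested 3 fell (Postn at least 15.1-fold, Prrx1 9.47-fold and Fbn1 2.74-fold) and Thy1 rose 2.47-fold. Of the feeder markers not tested, Dcn (1.05 and 0.884 in WT against 15.4 and 14.9) and Lox (2.93 and 2.48 against 17.8 and 12.8) were higher in CTCF-K20R EBs. Twist2 was lower (27.5 and 26.4 against 13 and 10.9), and Lum was at or under the limit in both. Postn passed the filter on low values only through the WT EBs. The part of all these marker lists in the members' values was not tested.

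Collagen IV is the network-forming collagen of basement membranes, and its commonest trimer has chains from Col4a1 and Col4a2. Col4a1 gave 744 and 731 normalized counts in WT and 600.2 and 726 in CTCF-K20R mESCs, then 2857 and 2837 in WT and 544 and 565 in CTCF-K20R EBs. Col4a2 gave 216 and 218 normalized counts in WT and 211 and 183 in CTCF-K20R mESCs, then 1225 and 1263 in WT and 239.8 and 242 in CTCF-K20R EBs. Both genes were higher in WT EBs than in every other library, and in CTCF-K20R EBs they were near their level in mESCs. Col4a1 was 5.13-fold lower in CTCF-K20R than in WT EBs (log2 fold change -2.36, SE 0.13, adjusted p = 0.000161). Col4a2 was 5.16-fold lower (log2 fold change -2.36, SE 0.15, adjusted p = 0.000235). Per kb of exon, the level of Col4a1 was 2.07 and 1.99 times that of Col4a2 in WT EBs and 2.01 and 2.07 times in CTCF-K20R EBs, and the ratio was thus alike in both genotypes. In mESCs the same ratio lay between 2.53 and 3.52.

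The collagen IV genes lie in pairs that start next to each other and run in opposite directions. On chromosome 8 of GRCm38, Col4a1 (chr8:11198423-11312826) and Col4a2 (chr8:11312805-11449287) have annotated first bases at 11312826 on the minus strand and 11312805 on the plus strand, so that their annotated transcripts overlap by 22 bases. Of the 78 bases that the RefSeq promoter windows of both genes share, 30 are shown because they lie in the promoters of 2 DEGs at once. They cover chr8:11312788-11312817 on the plus strand, as RefSeq gives it for GRCm38.p6, with a CTC box (CCCTCCCC) and a GC box (GGGCGG) in capitals.
Col4a1/Col4a2: tgccCCCTCCCCtcggcagtgcgcGGGCGG
Reads from the overlap cannot be assigned to 1 of the 2 genes unless strand was used in the counting, and the strand setting is not given in the sources used here. The other 2 pairs were lower in level in EBs. Col4a5 gave 12.5 and 10.4 normalized counts in WT and 8.27 and 1.05 in CTCF-K20R mESCs, then 118 and 119 in WT and 42.9 and 43.8 in CTCF-K20R EBs. Col4a6, which starts 1308 bases from Col4a5 on chromosome X, gave 3.84 and 11.3 normalized counts in WT and 7.84 and 0.869 in CTCF-K20R mESCs, then 67.8 and 74.4 in WT and 37.6 and 30.5 in CTCF-K20R EBs. Both were lower in CTCF-K20R than in WT EBs without passing the test (log2 fold change -1.43, SE 0.89, adjusted p = 0.255 for Col4a5 and -1.05, SE 0.93, adjusted p = 0.416 for Col4a6). Col4a5 became a DEG with a pseudocount of 10, with only the libraries compared in the fit and without CTCF-K20R mESCs replicate 2 (adjusted p = 0.0411). Col4a3 and Col4a4, with 71 bases between their starts on chromosome 1, were among the members not tested, with Col4a3 at 8.55 and 7.88 normalized counts in WT and 3.96 and 5.04 in CTCF-K20R mESCs, then 14.3 and 12 in WT and 1.21 and 0.304 in CTCF-K20R EBs and Col4a4 at 2.93 and 2.44 normalized counts in WT and 1.87 and 18.8 in CTCF-K20R mESCs, then 9.18 and 7.76 in WT and 1.97 and 6.57 in CTCF-K20R EBs.

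Col18a1 rose with the smallest standard error of the 10 upregulated members, and Col13a1 had the largest fall. Col18a1 encodes collagen XVIII, a basement membrane collagen that carries heparan sulfate and from which endostatin is cut. It gave 7491 and 7542 normalized counts in WT and 6666 and 6569 in CTCF-K20R mESCs, then 1347 and 1382 in WT and 6931 and 7113 in CTCF-K20R EBs. The WT EBs were the only low group, and the CTCF-K20R EBs stood at the level of the mESCs. Col18a1 was 5.15-fold higher in CTCF-K20R than in WT EBs (log2 fold change 2.36, SE 0.04, adjusted p = 1.02e-05). Col13a1 encodes collagen XIII, a collagen that spans the cell membrane. It gave 96.5 and 87.6 normalized counts in WT and 89.5 and 72.7 in CTCF-K20R mESCs, then 619 and 611 in WT and 3.21 and 5.999 in CTCF-K20R EBs. The CTCF-K20R EBs were at a few reads per library while the WT EBs were above all mESC libraries. The ratio was 133-fold (log2 fold change -6.83, SE 0.41, adjusted p = 0.000225). The 250 bases before the RefSeq start of each gene (GRCm38.p6) are shown since these 2 collagens stand for the rise and the fall. Capitals mark matches, on either strand, to the CTC box and the GC box as above, to CCAAT and to the TATA box, searched as TATAAA. They cover chr10:61979109-61979358 for Col13a1 and chr10:77166531-77166780 for Col18a1, both on the minus strand.
Col13a1: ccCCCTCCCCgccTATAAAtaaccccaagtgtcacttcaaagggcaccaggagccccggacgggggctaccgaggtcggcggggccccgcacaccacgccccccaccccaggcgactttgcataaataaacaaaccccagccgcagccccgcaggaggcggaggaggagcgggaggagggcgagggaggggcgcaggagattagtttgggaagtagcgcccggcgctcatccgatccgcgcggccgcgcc
Col18a1: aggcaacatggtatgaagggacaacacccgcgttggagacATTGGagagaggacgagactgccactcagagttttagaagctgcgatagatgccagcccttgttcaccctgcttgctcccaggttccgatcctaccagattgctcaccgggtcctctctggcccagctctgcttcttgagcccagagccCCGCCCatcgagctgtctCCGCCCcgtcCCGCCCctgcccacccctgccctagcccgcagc
The Col18a1 stretch holds 3 GC boxes and 1 CCAAT box, and the Col13a1 stretch 1 CTC box and 1 TATA box.

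Of the other collagens that span the membrane, Col23a1 gave 35.6 and 44.6 normalized counts in WT and 16.4 and 9.12 in CTCF-K20R mESCs, then 293 and 287 in WT and 17.5 and 16.8 in CTCF-K20R EBs and was 16.9-fold lower in CTCF-K20R EBs (log2 fold change -4.01, SE 0.45, adjusted p = 0.00171). Col25a1 gave 62 and 56 normalized counts in WT and 13.5 and 15.2 in CTCF-K20R EBs and fell as well (log2 fold change -1.97, adjusted p = 0.0345), a call lost under 3 of the 17 alternatives. Col17a1, the fourth of them, gave 6.6 and 5.62 normalized counts in WT and 40.5 and 6.11 in CTCF-K20R EBs, and its CTCF-K20R EB libraries differed too much from each other for a difference to be detectable (log2 fold change 1.27, SE 1.08, adjusted p = 0.395).

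Fibril-associated collagens sit on the surface of collagen fibrils. Of these, Col9a1 and Col19a1 passed the filter on low values only through the WT EBs, so on day 4 they could only be called lower. Col9a1 gave 65.1 and 62.5 normalized counts in WT and 1.16 and 1.75 in CTCF-K20R EBs and 0 in all 4 mESC libraries, so it was read in the WT EBs alone above the limit and was at least 18.6-fold lower in CTCF-K20R EBs (SE 0.65 on the log2 scale, adjusted p = 0.0034). Col19a1 gave 0 and 0 normalized counts in WT and 0.937 and 0 in CTCF-K20R mESCs, then 58.1 and 59.8 in WT and 0 and 1.47 in CTCF-K20R EBs and was at least 17.2-fold lower (SE 0.88, adjusted p = 0.00664), and this call was lost with a pseudocount of 0.1. Col9a2, which encodes a partner chain of Col9a1 in collagen IX, took the opposite course. It gave 165 and 148 normalized counts in WT and 137 and 134 in CTCF-K20R mESCs, then 42.9 and 54.3 in WT and 313 and 226 in CTCF-K20R EBs and was 5.55-fold higher in CTCF-K20R EBs (log2 fold change 2.43, SE 0.25, adjusted p = 0.00121). The 3 chains of collagen IX thus showed 3 outcomes, since Col9a3 gave 89.7 and 86.7 normalized counts in WT and 114 and 67.5 in CTCF-K20R EBs with a log2 fold change of -0.01 (adjusted p = 0.991). Col20a1 fell (log2 fold change -1.57, adjusted p = 0.0398), and its call was lost under 6 of the 17 alternatives, among them without CTCF-K20R EBs replicate 1 (adjusted p = 0.128), without CTCF-K20R EBs replicate 2 (adjusted p = 0.181) and without WT EBs replicate 2 (adjusted p = 0.138). Col14a1, Col16a1, Col22a1 and Col9a3 did not pass the test.

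Fibrillar collagens build the fibrils of connective tissue, and of the 10 tested 2 rose and 3 fell. Col5a1, which encodes a chain that starts collagen I fibrils, was at 1165 and 1155 normalized counts in WT and 289 and 309 in CTCF-K20R EBs (log2 fold change -1.95, adjusted p = 0.000161). Col2a1, the collagen of cartilage and notochord, was at 747 and 751 normalized counts in WT and 249 and 276 in CTCF-K20R EBs (log2 fold change -1.51, adjusted p = 0.00154). The third to fall was Col11a1 (log2 fold change -1.12, adjusted p = 0.0166), which did not pass without CTCF-K20R EBs replicate 1 (adjusted p = 0.0675), without CTCF-K20R EBs replicate 2 (adjusted p = 0.0877) or under quantile normalization. Col5a3 gave 87 and 85.6 normalized counts in WT and 74.3 and 60.1 in CTCF-K20R mESCs, then 4.46 and 10.6 in WT and 33.2 and 48.6 in CTCF-K20R EBs and rose 5.42-fold on day 4 (log2 fold change 2.27, SE 0.38, adjusted p = 0.00669), against 2.00 with adjusted p = 0.0538 without CTCF-K20R EBs replicate 2. The chains of collagen I were low in mESCs and highest in WT EBs. Col1a1 gave 17.4 and 16 normalized counts in WT and 34.3 and 32.2 in CTCF-K20R mESCs, then 167 and 144 in WT and 48.9 and 84.1 in CTCF-K20R EBs, and Col1a2 gave 28.1 and 26 normalized counts in WT and 21.6 and 12.2 in CTCF-K20R mESCs, then 55.5 and 65.7 in WT and 38.3 and 31.6 in CTCF-K20R EBs. Neither was a DEG on day 4 (Col1a1 log2 fold change -1.26, SE 0.41, adjusted p = 0.056, Col1a2 -0.78, SE 0.46, adjusted p = 0.228), although Col1a1 passed with a pseudocount of 10, with all 8 libraries as separate samples, with every library scaled to the same total and without WT EBs replicate 2 (adjusted p = 0.044). Col3a1, which encodes the chain of collagen III, gave 0 and 0 normalized counts in WT and 0 and 1.51 in CTCF-K20R mESCs, then 4.15 and 3.5 in WT and 62.9 and 22.4 in CTCF-K20R EBs. It passed the filter on low values only through the CTCF-K20R EBs, so on day 4 it could only be called higher. Its CTCF-K20R EB libraries were both above WT but far from each other (log2 fold change 3.00, SE 0.91, adjusted p = 0.0473), and the call was lost under 9 of the 17 alternatives, among them without CTCF-K20R EBs replicate 1 (adjusted p = 0.156) and replicate 2 (adjusted p = 0.0761), without CTCF-K20R mESCs replicate 1 (adjusted p = 0.0505) and replicate 2 (adjusted p = 0.0517) and without WT EBs replicate 2 (adjusted p = 0.0516). Of the collagen VI chains, which form beaded microfibrils, Col6a2, at 53.7 and 54.6 normalized counts in WT and 109 and 139.7 in CTCF-K20R EBs, rose (log2 fold change 1.17, adjusted p = 0.0448), and this call was lost under 8 of the 17 alternatives, with each CTCF-K20R library left out among them (adjusted p = 0.08004 and 0.126 without the EB replicates 1 and 2, 0.0637 and 0.0643 without those of the mESCs).

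**Figure D2:**
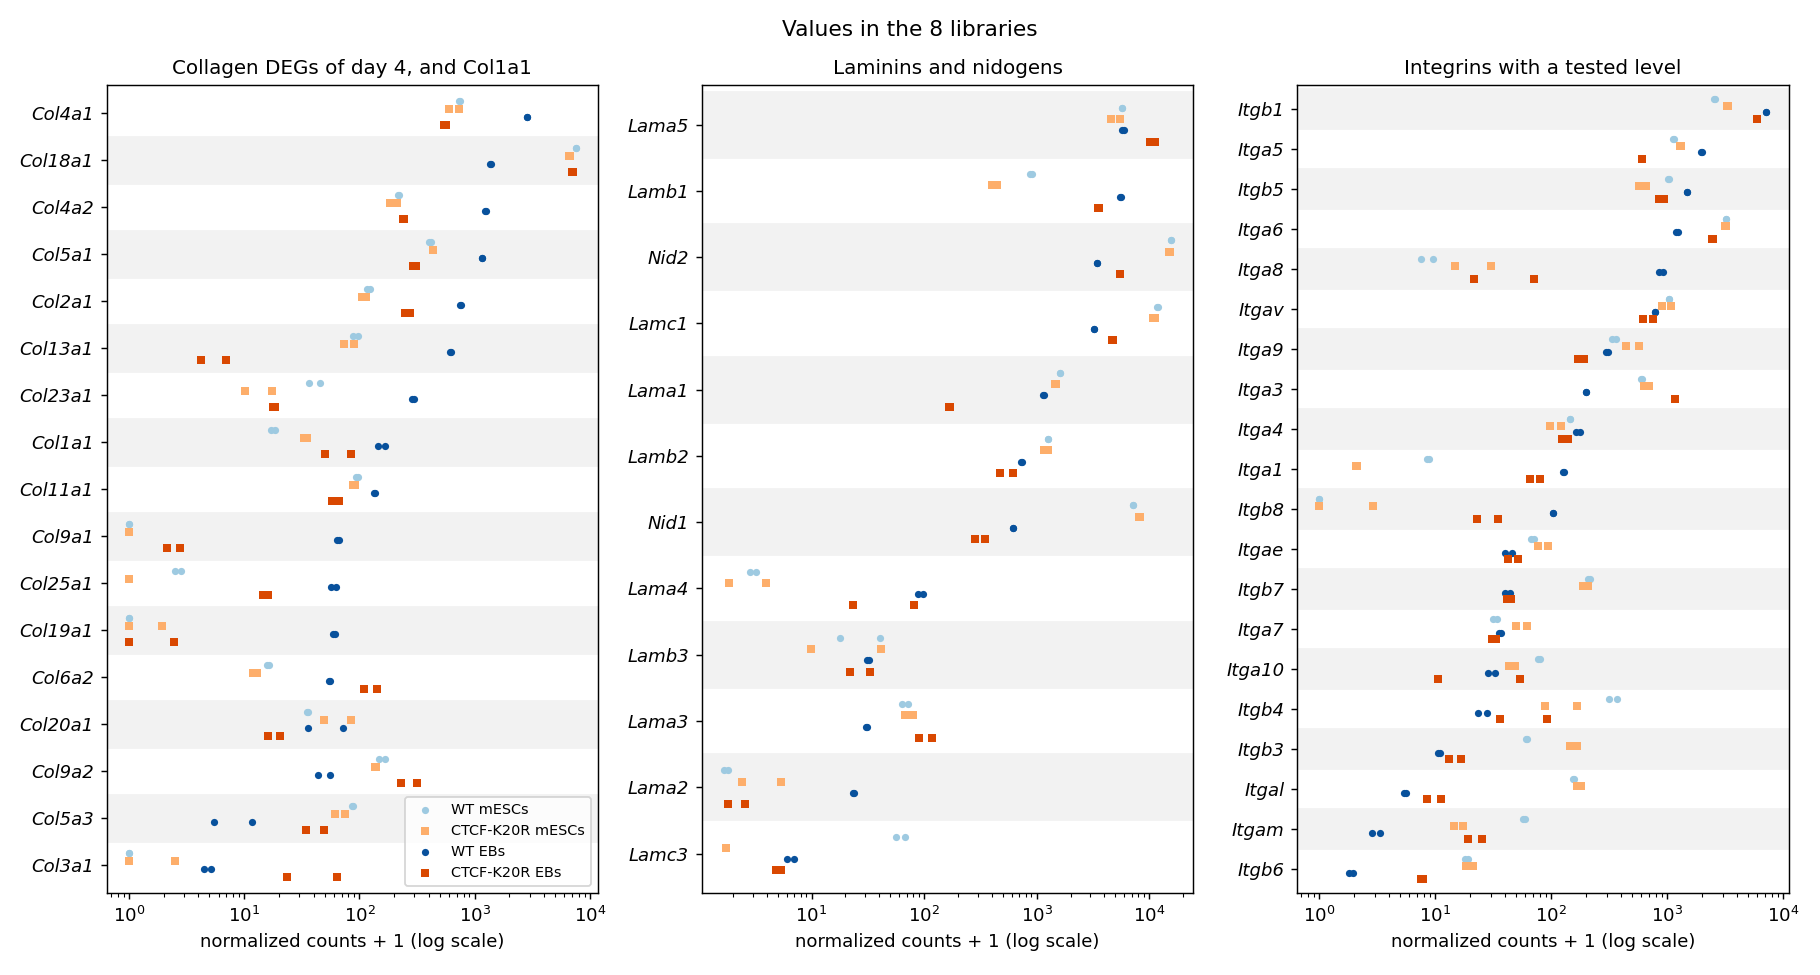
Normalized counts plus 1, on a log axis, in each of the 8 libraries for the collagen DEGs of day 4 with Col1a1 (left), the laminins and nidogens (middle) and the integrins tested (right), in the order of their mean in WT EBs. Circles are WT and squares CTCF-K20R libraries, pale for mESCs and dark for EBs. In the rows of Col13a1, Itga8, Lama1 and Col4a1 the dark circles and the dark squares lie far apart. In these rows the WT symbols of each group nearly coincide, whereas the dark circles of Col20a1 (35.1 and 70.4) do not.

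Laminin alpha chains decide which receptors a laminin trimer binds. Lama1, the alpha chain of laminin-111, the first laminin of the embryo, gave 1609 and 1618 normalized counts in WT and 1464 and 1489 in CTCF-K20R mESCs, then 1165 and 1139 in WT and 164 and 168 in CTCF-K20R EBs. Both CTCF-K20R EB libraries were far below the other 6. The difference on day 4 was 6.93-fold (log2 fold change -2.79, SE 0.08, adjusted p = 3.02e-05). Lama5, the alpha chain of laminin-511, gave 5774 and 5778 normalized counts in WT and 5550.0 and 4618 in CTCF-K20R mESCs, then 5958 and 5769 in WT and 11310.5 and 10069.8 in CTCF-K20R EBs, and both CTCF-K20R EB libraries were above all others (log2 fold change 0.86, SE 0.12, adjusted p = 0.00362), short of the fold threshold. Lama3, the alpha chain of laminin-332, gave 71.4 and 62.8 normalized counts in WT and 79 and 66.8 in CTCF-K20R mESCs, then 29.3 and 30.3 in WT and 116 and 88.9 in CTCF-K20R EBs and was upregulated (log2 fold change 1.73, SE 0.30, adjusted p = 0.00749), against adjusted p = 0.0661 without CTCF-K20R EBs replicate 1.

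The beta and gamma chains differed less. Lamb1, the beta chain of laminin-111 and laminin-511, gave 901 and 881 normalized counts in WT and 398 and 446 in CTCF-K20R mESCs, then 5583 and 5514 in WT and 3513 and 3563 in CTCF-K20R EBs. It was lower in CTCF-K20R on both days, with a log2 fold change of -0.65 on day 4 (SE 0.08, adjusted p = 0.00267). Lamc1, the gamma chain of both, gave 11793 and 11932 normalized counts in WT and 11286 and 10856 in CTCF-K20R mESCs, then 3256 and 3221 in WT and 4677 and 4797 in CTCF-K20R EBs (log2 fold change 0.55, SE 0.04, adjusted p = 0.000471). Lamb3, a beta chain of epithelial basement membranes, gave 16.9 and 39.4 normalized counts in WT and 40.1 and 8.96 in CTCF-K20R mESCs, then 31.5 and 30.04 in WT and 31.8 and 21.2 in CTCF-K20R EBs and did not pass the test (log2 fold change -0.24, SE 0.86, adjusted p = 0.852). Lamb2, a beta chain of later basement membranes, was at 1253 and 1273 normalized counts in WT and 1263 and 1161 in CTCF-K20R mESCs, then 735 and 731 in WT and 474 and 614 in CTCF-K20R EBs (log2 fold change -0.44, SE 0.16, adjusted p = 0.0808). Between the nidogens the sign differed. Nid1 gave 7195 and 7219 normalized counts in WT and 8107 and 8271 in CTCF-K20R mESCs, then 612 and 614 in WT and 347 and 283 in CTCF-K20R EBs, and Nid2 gave 15600.1 and 15658 normalized counts in WT and 15279.8 and 15009 in CTCF-K20R mESCs, then 3468 and 3432 in WT and 5455 and 5517 in CTCF-K20R EBs. Nid1 was lower in CTCF-K20R EBs (log2 fold change -0.97, SE 0.12, adjusted p = 0.00252) and Nid2 higher (0.67, SE 0.03, adjusted p = 0.00014), both short of the fold threshold. Nid1 passed it with every library scaled to the same total and without CTCF-K20R EBs replicate 1 (log2 fold change -1.11).

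Integrin alpha subunits are grouped here by what they bind. Of the 3 laminin-binding subunits 2 rose, and of the 3 RGD-binding subunits 2 fell. Itga3, which with Itgb1 gives a receptor for laminin-511 and laminin-332, gave 599 and 600.2 normalized counts in WT and 699 and 636 in CTCF-K20R mESCs, then 199.9 and 198 in WT and 1172 and 1176 in CTCF-K20R EBs. The CTCF-K20R EBs were the highest group and the WT EBs the lowest, 5.9-fold apart (log2 fold change 2.55, SE 0.10, adjusted p = 6.69e-05). Itga6, the alpha6 subunit, gave 3206 and 3236 normalized counts in WT and 3123 and 3202 in CTCF-K20R mESCs, then 1244 and 1189 in WT and 2501 and 2411 in CTCF-K20R EBs, 2.02-fold apart on day 4 (log2 fold change 1.01, SE 0.05, adjusted p = 0.000148). This fold lies at the threshold, and the call was lost at 0.91 with every library scaled to the same total, at 0.99 without CTCF-K20R EBs replicate 1 and at 0.98 without WT EBs replicate 2. The third laminin-binding subunit, Itga7, was at 34.6 and 35.8 normalized counts in WT and 29.7 and 32.5 in CTCF-K20R EBs and did not pass.

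Itga5, the alpha subunit of the fibronectin receptor, gave 1116 and 1133 normalized counts in WT and 1290.2 and 1312 in CTCF-K20R mESCs, then 2000.5 and 1959 in WT and 610.2 and 601 in CTCF-K20R EBs. WT EBs were above and CTCF-K20R EBs below all mESC libraries (log2 fold change -1.71, SE 0.07, adjusted p = 6.97e-05). Itga8, which binds nephronectin and other RGD proteins, gave 6.54 and 8.59 normalized counts in WT and 13.8 and 29.1 in CTCF-K20R mESCs, then 855 and 918 in WT and 20.54 and 70.6 in CTCF-K20R EBs. It was read at a high level in WT EBs only, 19.4-fold above CTCF-K20R EBs (log2 fold change -4.50, SE 0.80, adjusted p = 0.00845), and the call was lost without CTCF-K20R EBs replicate 1 (log2 fold change -3.63, adjusted p = 0.0602) and without the mean-variance trend. Itgav gave 1028 and 1043 normalized counts in WT and 1083 and 902 in CTCF-K20R mESCs, then 786 and 781 in WT and 759.7 and 614 in CTCF-K20R EBs and its difference did not pass the test (log2 fold change -0.20, SE 0.17, adjusted p = 0.387). The 250 bases before the RefSeq starts of Itga8 (chr2:12301945-12302194) and Itga3 (chr11:95076715-95076964), both on the minus strand of GRCm38.p6, are shown because they stand for both directions among the alpha subunits, with the same motifs in capitals.
Itga8: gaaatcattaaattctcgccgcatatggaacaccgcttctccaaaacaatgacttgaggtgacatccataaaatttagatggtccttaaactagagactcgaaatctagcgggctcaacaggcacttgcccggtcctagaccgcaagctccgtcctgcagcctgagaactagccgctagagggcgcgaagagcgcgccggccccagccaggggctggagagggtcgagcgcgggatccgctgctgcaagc
Itga3: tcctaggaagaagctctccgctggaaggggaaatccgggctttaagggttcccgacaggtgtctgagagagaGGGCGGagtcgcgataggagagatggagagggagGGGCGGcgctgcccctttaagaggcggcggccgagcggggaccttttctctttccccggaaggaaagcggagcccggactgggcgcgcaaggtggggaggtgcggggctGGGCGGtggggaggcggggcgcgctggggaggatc
The Itga3 stretch holds 3 GC boxes and the Itga8 stretch no match to any of the 4 motifs.

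Of the other alpha subunits, Itga1, a collagen receptor subunit, was at 129 and 126 normalized counts in WT and 64.8 and 79 in CTCF-K20R EBs (log2 fold change -0.82, SE 0.42, adjusted p = 0.174). Itga4, a subunit of receptors for VCAM-1 and fibronectin, was at 145 and 145 normalized counts in WT and 119 and 97.4 in CTCF-K20R mESCs, then 177 and 162 in WT and 123 and 139 in CTCF-K20R EBs (log2 fold change -0.37, SE 0.23, adjusted p = 0.246), and its relative Itga9 at 331 and 362 normalized counts in WT and 566 and 439.5 in CTCF-K20R mESCs, then 311 and 295 in WT and 170.1 and 190.0 in CTCF-K20R EBs (log2 fold change -0.75, SE 0.19, adjusted p = 0.0271). Itgam, known as a subunit of myeloid cells, gave 56.2 and 59 normalized counts in WT and 16.3 and 13.7 in CTCF-K20R mESCs, then 1.85 and 2.34 in WT and 18.1 and 24.1 in CTCF-K20R EBs and was at least 7.33-fold higher in CTCF-K20R than in WT EBs (SE 0.44 on the log2 scale, adjusted p = 0.00537). Its usual beta partner Itgb2 was at 8.82 and 8.94 normalized counts in WT and 5.23 and 13 in CTCF-K20R EBs and was not tested. Among the beta subunits, Itgb1 gave 2560.4 and 2547 normalized counts in WT and 3312 and 3268 in CTCF-K20R mESCs, then 7152 and 7137 in WT and 5950.4 and 5929 in CTCF-K20R EBs. It was the most abundant member per kb in EBs of both genotypes, with 1751 normalized counts per kb in WT and 1455 in CTCF-K20R EBs, and its difference on day 4 was small (log2 fold change -0.27, SE 0.04, adjusted p = 0.00428). Itgb5, a partner of Itgav, gave 1031 and 1021 normalized counts in WT and 576 and 653 in CTCF-K20R mESCs, then 1493 and 1473 in WT and 844 and 936 in CTCF-K20R EBs, with a log2 fold change of -0.74 on day 4 (SE 0.11, adjusted p = 0.00479). Itgb6, another partner of Itgav, gave 18 and 16.9 normalized counts in WT and 20.3 and 17.5 in CTCF-K20R mESCs, then 0.965 and 0.815 in WT and 6.79 and 6.54 in CTCF-K20R EBs and was at least 2.32-fold higher (SE 0.48 on the log2 scale, adjusted p = 0.022), a call lost with a pseudocount of 10.

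Levels per kb of exon, which can be set side by side between genes, give the share of each chain. Among the laminin alpha chains Lama1 held 18.4% and 18.5% of the summed level in WT EBs and 1.65% and 1.9% in CTCF-K20R EBs. In mESCs it held 24.4% and 24.6% in WT and 23.4% and 27.2% in CTCF-K20R. Lama5 made up nearly all of the rest, with 79.8% and 79.7% in WT EBs and 96.6% and 97% in CTCF-K20R EBs. Among the beta chains, by contrast, Lamb1 held 81.8% and 81.7% in WT and 81.1% and 77.5% in CTCF-K20R EBs, and its share in mESCs was 30.3% and 29.2% in WT and 15.8% and 19% in CTCF-K20R. Lamc1 held between 95.2% and 98.7% of the gamma chains in all 8 libraries.

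**Figure D3:**
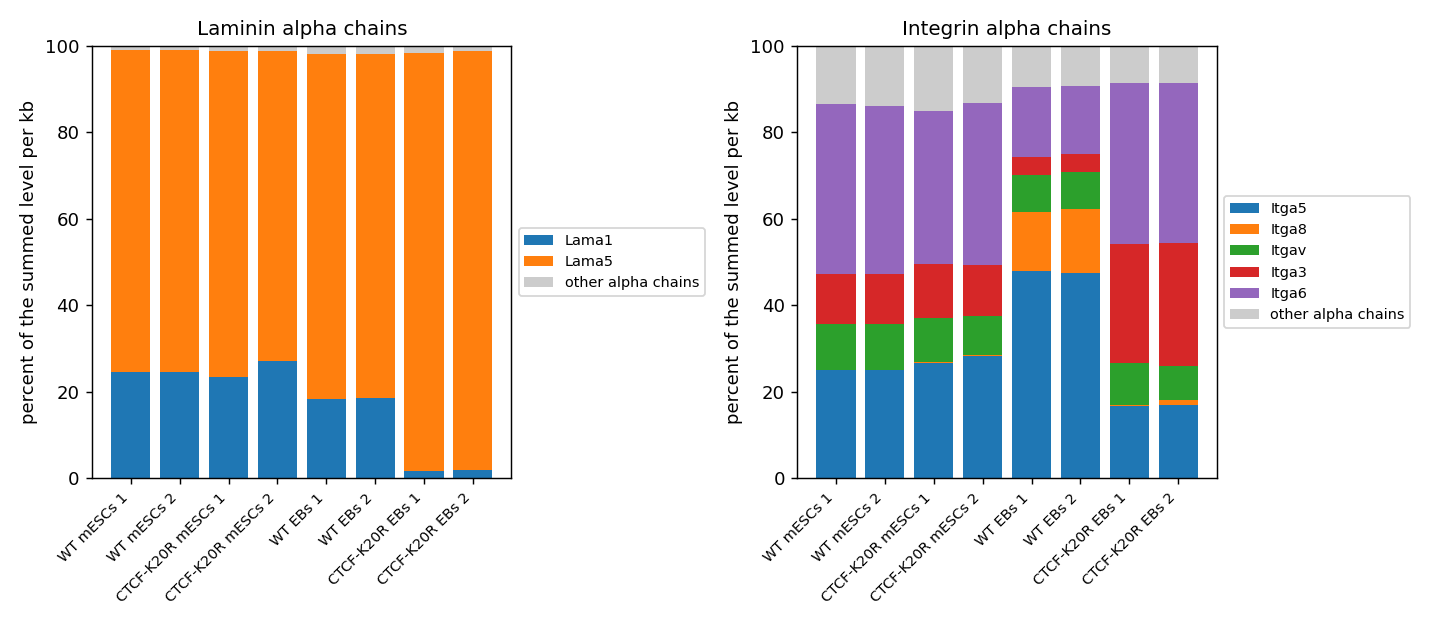
Share of each chain in the summed level per kb of exon of the 5 laminin alpha chains (left) and of the integrin alpha chains (right), in percent, for each of the 8 libraries. Lama1 (blue, left) is at 18.4% in WT EBs and 1.78% in CTCF-K20R EBs on average. Itga3 and Itga6 (red and purple, right) hold more in CTCF-K20R than in WT EBs, and Itga5 and Itga8 (blue and orange) less. The Itga6 share in CTCF-K20R EBs (37.1% on average) is near that in CTCF-K20R mESCs (36.4%).

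For the integrin alpha subunits the shares were grouped by what they bind. In WT EBs the RGD-binding subunits held 70.2% and 70.9% and the laminin-binding subunits 20.9% and 20.4%. In CTCF-K20R EBs the order was the opposite, with 26.6% and 26% for the RGD-binding and 65.4% and 65.8% for the laminin-binding subunits. The mESCs of both genotypes lay between, with 35.7% and 35.7% (WT) and 37.1% and 37.5% (CTCF-K20R) for the RGD-binding and 51.3% and 50.9% (WT) and 48.4% and 50.1% (CTCF-K20R) for the laminin-binding subunits. Within these groups Itga5 went from 47.6% of all alpha subunits in WT EBs to 16.7% in CTCF-K20R EBs on average, and Itga3 from 4.13% to 28%. These shares are descriptions without a test, and a share falls where other chains rise. They also depend on the gene length used. The members together held a like part of all normalized counts in EBs, 0.239% and 0.237% in the WT and 0.235% and 0.231% in the CTCF-K20R libraries.

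On day 0, before differentiation, the same contrast gave 0 upregulated and 4 downregulated members of 66 in limma, against 1.19% and 2.6% of all genes tested (3.79% in either direction). At an unadjusted p under 0.05 in limma, 4 members were higher and 9 lower. The share of all genes at this cut was not determined, so these counts cannot be set against a background. With a pseudocount of 10, or with all 8 libraries as separate samples, 1 member was called higher. The members' median log2 fold change was -0.11, against -0.01 over all genes. No collagen was a DEG on day 0. Lamc3, a gamma chain of nervous tissue and other late sites, gave 66.5 and 55.7 normalized counts in WT and 0.73 and 0.742 in CTCF-K20R mESCs, then 6.01 and 5.08 in WT and 3.88 and 4.38 in CTCF-K20R EBs. It was read in WT mESCs and was under the limit in both CTCF-K20R mESC libraries, at least 18.5-fold lower (SE 0.54 on the log2 scale, adjusted p = 0.00503). Lamb1 fell 2.11-fold (log2 fold change -1.08, SE 0.08, adjusted p = 0.00211), with 901 and 881 normalized counts in WT and 398 and 446 in CTCF-K20R mESCs. Itgam fell 3.85-fold (log2 fold change -1.88, SE 0.44, adjusted p = 0.045), the opposite of its direction on day 4. Itga1, at 7.92 and 7.57 normalized counts in WT and 1.08 and 1.1 in CTCF-K20R mESCs, was at least 2.34-fold lower (SE 0.42 on the log2 scale, adjusted p = 0.0303).

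These 4 calls rest on the spread pooled over few samples. Without CTCF-K20R EBs replicate 1 the adjusted p was 0.0589 for Lamc3 and 0.0683 for Lamb1, and without CTCF-K20R EBs replicate 2 it was 0.0588 and 0.0684. Lamb1 also fell short of the fold threshold without CTCF-K20R mESCs replicate 1, at -0.998. Itga1 and Itgam did not pass without any 1 of the 4 CTCF-K20R libraries (for the mESC replicates 1 and 2 and the EB replicates 1 and 2 in turn, Itga1 adjusted p = 0.0853, 0.0836, 0.0788 and 0.079, and Itgam adjusted p = 0.11, 0.132, 0.0929 and 0.0926). The mESCs had been cultured on feeder cells. Of 9 fibroblast markers in the table, Postn, Dcn and Twist2 were at 0 in all 4 mESC libraries and Lum at 0 in 3 of them and at about 1 read in the fourth, and the summed level of the list was 645 and 644 in WT and 484 and 504 in CTCF-K20R mESCs, most of it Thy1 and Pdgfrb. These moved in opposite directions on day 0, with Thy1 lower in CTCF-K20R (log2 fold change -2.14, adjusted p = 0.00155 in limma) and Pdgfrb higher (1.42, adjusted p = 0.00866). The part of feeder RNA in the members' day 0 values was not tested beyond these levels.

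Whether the genotype effect differed between days was tested as an interaction. The effect was more positive on day 4 for 9 members and more negative for 15 of the 66, against 6.84% and 6.04% of all genes tested. All 13 members that were DEGs of day 4 under each of the 17 alternatives tried also passed this test. Of the 10 members upregulated on day 4, 7 passed, and of the 14 downregulated, 12 passed. The interaction is the day 4 effect minus the day 0 effect, so it uses again the EB values by which these DEGs were chosen. Their passes are thus no independent support, and the share that passed among all day 4 DEGs was not determined. Among the basement membrane chains the difference was -2.66 for Lama1, -2.20 for Col4a1, -2.22 for Col4a2 and -1.15 for Nid1, and it was 2.55 for Col18a1 and 1.05 for Lama5, all on the log2 scale. For the receptors it was 2.40 for Itga3, 1.04 for Itga6, -1.92 for Itga5 and -5.80 for Itga8. Lamb1 and Itgb5 gave no such call (0.43, adjusted p = 0.0471, and 0.003, adjusted p = 0.992), and their genotype effects had the same sign on both days.

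The course from day 0 to day 4 was read for each genotype. In WT the members' log2 difference between EBs and mESCs was above 1 for 29 and below -1 for 20 of 66, against 18.9% and 16.3% of all genes, with no test since each side is 1 sample. In CTCF-K20R, where both days had 2 samples, 19 members rose and 15 fell, against 14.5% and 11.6% of all genes. Collagens made up most of the members that were higher in EBs, 23 of the 29 above 1 in WT and 13 of the 19 called higher in CTCF-K20R. The 14 members downregulated on day 4 had a median log2 difference between days of 2.59 in WT and -0.04 in CTCF-K20R. Of these 14, 10 were higher by more than 1 in WT EBs than in WT mESCs, and 8 were not called either way in CTCF-K20R. The 10 upregulated members had medians of -1.63 in WT and 0.47 in CTCF-K20R, and 8 of the 10 were lower by more than 1 in WT EBs while 7 of the 10 were not called in CTCF-K20R. Both sets were chosen by the genotype difference in these same EB libraries. A gap of this sign between WT and CTCF-K20R was therefore largely built in by the choice and is no separate result.

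Single members took different courses. Col18a1 was -2.46 in WT EBs against WT mESCs on the log2 scale and 0.09 in CTCF-K20R (SE 0.03, adjusted p = 0.0672). Col4a1 was 1.95 in WT and -0.25 in CTCF-K20R (SE 0.10, adjusted p = 0.0859). In CTCF-K20R neither gene passed the test between days. Other members fell between days in CTCF-K20R. Lama1 was -0.49 in WT but fell by 3.14 in CTCF-K20R (SE 0.07, adjusted p = 3.63e-06), Itga5 was 0.81 in WT and -1.102 in CTCF-K20R (SE 0.05, adjusted p = 4.26e-05), and Col13a1 was 2.73 in WT but fell by 3.91 (SE 0.34, adjusted p = 0.000307). For a further set the sign was the same in both genotypes. Lamb1 was 2.64 in WT and rose by 3.07 in CTCF-K20R (adjusted p = 4.04e-06). Nid1 was -3.55 in WT and fell by 4.70 (adjusted p = 3.63e-06), Nid2 was -2.18 and fell by 1.46 (adjusted p = 3.1e-06), and Lamc1 was -1.87 and fell by 1.22 (adjusted p = 7.61e-06). Itgb8, a partner of Itgav that binds latent TGF-beta, gave 0 and 0 normalized counts in WT and 0 and 1.93 in CTCF-K20R mESCs, then 102 and 102 in WT and 34 and 22 in CTCF-K20R EBs, and its day 4 difference did not pass the test (log2 fold change -1.86, SE 0.79, adjusted p = 0.116).

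**Figure D4:**
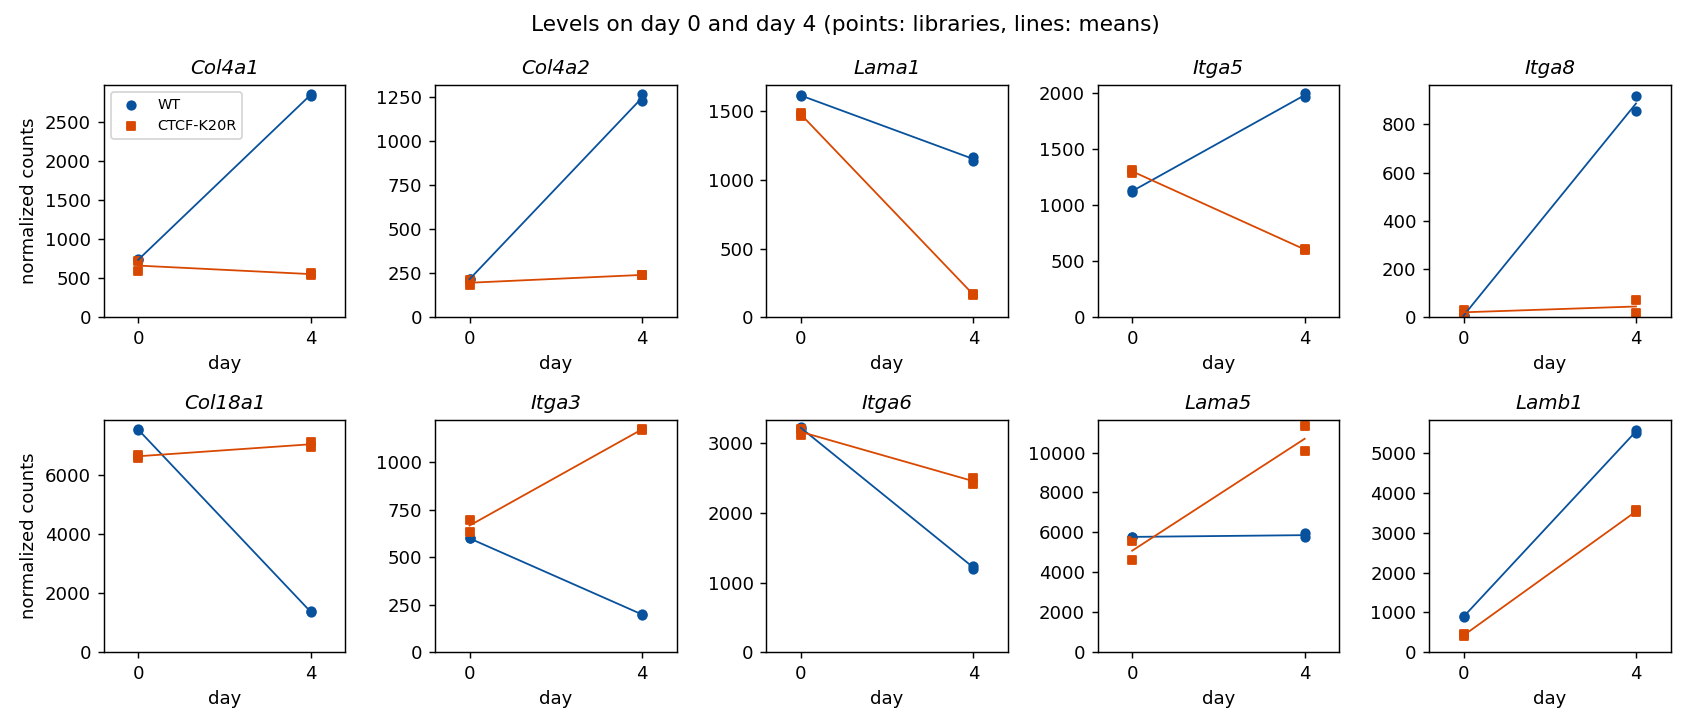
Normalized counts on day 0 (mESCs) and day 4 (EBs) for 10 members, with each library as a point and lines through the group means, WT in blue and CTCF-K20R in orange, and all axes start at 0. The genotypes start close together on day 0 for Col4a1, Col4a2 and Itga6 and are apart on day 4, whereas Lamb1 is lower in CTCF-K20R on both days. Itga8 is low on day 0 (means of 7.57 in WT and 21.5 in CTCF-K20R) on an axis set by its WT EB values, and is apart on day 4.

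The rest of the matrix pathway was read from 5 lists. Of 26 other matrix proteins tested on day 4, 1 rose and 11 fell, with a median log2 fold change of -0.88. The list includes Fn1, the fibronectin ligand of Itga5, at 46096 and 46007 normalized counts in WT and 3602 and 3976 in CTCF-K20R EBs (log2 fold change -3.60, SE 0.06, adjusted p = 1.02e-05), and Postn, a matrix protein of mesenchyme, at 51.9 and 51.6 normalized counts in WT and 0 and 0 in CTCF-K20R EBs, at least 15.1-fold lower (adjusted p = 0.0021). Of 22 genes of collagen folding, modification and cross-linking, 1 rose and 6 fell (median -0.37), led by the lysyl oxidase Loxl4 (-2.51, adjusted p = 0.0304) and the procollagen protease Bmp1 (-1.87, adjusted p = 0.0031). Of 14 matrix proteases and inhibitors 5 fell (median -0.84), led by Htra1 (-2.85, adjusted p = 0.0052) and the membrane metalloprotease Mmp14 (-2.83, adjusted p = 0.000104). Among 24 integrin adaptors 1 rose and 3 fell (median -0.10), with the scaffold Bcar1 higher (1.59, adjusted p = 7.83e-05) and Kank1 lower (-1.34, adjusted p = 0.00029). Of 12 other matrix receptors 1 rose and 2 fell (median -0.31), with the syndecan Sdc4 higher (1.76, adjusted p = 6.77e-05) and the collagen receptor Ddr2, under the limit in CTCF-K20R EBs, at least 3.02-fold lower (adjusted p = 0.00387). These shares stand against the 6.89% higher and 8.65% lower among all genes.

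For each member the median day 4 log2 fold change of the 10 tested genes on either side was taken, and over the members these medians ran from -0.75 to 0.38 with a median of 0.02. The lowest was around Itga1, and around Col13a1, Col18a1, Lama1, Itga3, Itga5 and Itga8 the medians were 0.005, 0.02, 0.13, 0.18, 0.01 and 0.03. Col18a1 and Col13a1 lie on the same chromosome, 10, at chr10:77052178-77166548 and chr10:61838236-61979108 in GRCm38.

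RefSeq promoter windows (250 bases before to 50 after the start, GRCm38.p6) matched 54 of the 77 members. Each member gave 1 window, the one nearest its annotated 5' end. The windows of all genes hold every start listed and were not reduced in this way, so the shares below are not from like sets. The GC box (GGGCGG) lay in 33 of the 54 windows on either strand, against 35.7% of 32851 windows of all genes. It lay in 6 of 8 windows of upregulated and 7 of 12 of downregulated members. The CCAAT box lay in 15 of 54 (37.4% of all windows), in 2 of the 8 and 4 of the 12. The CTC box (CCCTCCCC) lay in 15 of 54 (10.8% of all windows), in 1 of the 8 and 5 of the 12, the collagen IV pair being counted as 2 windows that share 78 bases. TATAAA lay in 4 of 54 (13.6% of all windows), in 1 of each. These matches are a description of the windows and name no site in use.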

How the data were processed

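Reads of mRNA (VAHTS mRNA-seq kit, NovaSeq) were trimmed by the authors with Trim Galore, quantified with Salmon on mm10 and scaled with DESeq2. The deposited signal values are these normalized counts for 18094 genes in 8 libraries. The annotation release and the strand setting are not given in the sources used here. With no whole reads recovered, the depth before scaling is not known, and the summed values (between 19412659 and 21311513) are those after scaling. The worth of 1 read was inferred from the commonest low value of each library. Between 47.4% and 57.6% of low values lay near a whole multiple of it, so the limit of detection is approximate. Genes with a mean of at least 10 were tested by limma 3.58.1 (R 4.3.3) after a log2 transform with a pseudocount of 1 (mean-variance trend, Benjamini-Hochberg adjustment, 15767 genes, 2 residual and 3.51 prior degrees of freedom). The methods' model is a count model, which was not run on these scaled values. The script was tested on simulated data. The 2 libraries of a group are described as biological replicates from independent experiments, and p-values measure the spread between these samples only, and the WT value of each day, as 1 sample, is assumed to vary like the CTCF-K20R ones. Per kb levels used the union of exons of GENCODE vM21 (GRCm38), and promoters RefSeq GRCm38.p6. Values in every library were given for up to 8 called members in each direction on day 4 and 4 on day 0 (by absolute log2 fold change), the 10 members highest per kb, the chains of laminin-111, laminin-511 and laminin-332, collagen IV, Col1a1, Col1a2, Col3a1, the nidogens, Itgb1 and its alpha partners with a mean of at least 100, and from each list of other genes for the 2 largest calls. The counts cover all members found, but 1 of them is not reported here by itself, nor drawn. The members, lists and named genes were chosen with earlier results of these data known. Tried as alternatives were other pseudocounts, no filter, other scalings and fits, a replicate block and leaving out each library.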

Additional observations from a re-analysis of the deposited data

Results flagged for a closer look

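Between day 0 and day 4 the effect of CTCF-K20R against WT differed for 24 members (interaction in limma, adjusted p under 0.05 and an absolute difference above 1 on the log2 scale, day 4 minus day 0), with 1 sample for WT and 2 for CTCF-K20R on each day. More positive on day 4 were Lamc3 (4.81, adjusted p = 0.00944), Itgam (4.70, adjusted p = 0.00538), Col5a3 (2.63, adjusted p = 0.0198), Col9a2 (2.63, adjusted p = 0.00536), Col18a1 (2.55, adjusted p = 6.79e-05), Itga3 (2.40, adjusted p = 0.000428), Lama3 (1.62, adjusted p = 0.0416), Lama5 (1.05, adjusted p = 0.00984) and Itga6 (1.04, adjusted p = 0.000814). More negative on day 4 were Col13a1 (-6.64, adjusted p = 0.00142), Itga8 (-5.80, adjusted p = 0.0179), Col19a1 (-5.73, adjusted p = 0.0239), Col9a1 (-4.73, adjusted p = 0.0173), Lama1 (-2.66, adjusted p = 0.000206), Col20a1 (-2.44, adjusted p = 0.0413), Col23a1 (-2.38, adjusted p = 0.0448), Col4a2 (-2.22, adjusted p = 0.00169), Col1a1 (-2.22, adjusted p = 0.0409), Col4a1 (-2.20, adjusted p = 0.0012), Col5a1 (-2.04, adjusted p = 0.000886), Itga5 (-1.92, adjusted p = 0.000284), Col2a1 (-1.38, adjusted p = 0.0113), Itga9 (-1.27, adjusted p = 0.0222) and Nid1 (-1.15, adjusted p = 0.00769). For Lamc3 the day 4 levels were near the limit of detection in both genotypes. The mESCs of day 0 had been cultured on feeder cells, whose part in these values was not tested.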

How the results depend on the processing

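On day 4, 13 of the 24 called members (4 higher, 9 lower) were called under all 17 alternatives. The counts there stayed within 1.5 times of the 10 higher and 14 lower, except that the higher ones ranged from 6 to 10 when each library was left out, with 6 without CTCF-K20R EBs replicate 1. Scaling every library to the same total moved the median log2 fold change of all genes by -0.10 and gave 8 higher and 16 lower members, and quantile normalization gave 10 and 11. Day 0 was less stable. Members called higher numbered 1 with a pseudocount of 10 and 1 with all 8 libraries as separate samples, and those called lower 9 with all 8 libraries, 2 under quantile normalization, 1 with only the libraries compared and 1 without the mean-variance trend. Leaving out a library gave 0 to 4 lower members on day 0, with 0 without either CTCF-K20R EB library and 1 and 2 without CTCF-K20R mESCs replicates 1 and 2. For the difference between days, the higher members numbered 14 with all 8 libraries and 5 to 9 with a library left out (5 without CTCF-K20R EBs replicate 1), and the lower members 8 without the trend and 8 to 15 with a library left out (8 without CTCF-K20R EBs replicate 1 or 2). The longest transcript as gene length gave Lama5 78.5% of the laminin alpha level in WT EBs and 96.3% in CTCF-K20R EBs, against 79.7% and 96.8%. Other shares moved more with this length. Itga5 went from 47.6% to 39.5% in WT EBs. In CTCF-K20R EBs Itga6 went from 37.1% to 50.3% and Itga3 from 28% to 21.3%. Lamb1 went from 29.8% to 40.1% in WT mESCs. The cause was not tested for any of these. Lamb3 on day 4, not called, was -0.24 and ranged from -0.52 to 0.047 with a library left out, above 0 only without CTCF-K20R EBs replicate 2. The replicate numbers did not pair the samples (correlations of deviations from -0.03 to 0.03), and with the replicate block 8 members were higher and 13 lower on day 4, 0 and 3 on day 0, and 9 and 15 for the difference between days, with Col3a1, Col6a2 and Col25a1 losing their day 4 call. Values of a few reads, as for Col13a1 in CTCF-K20R EBs, limit what folds can show, and with 1 WT sample per day no spread between WT cultures was measured.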
